A study of Triticum aestivum with 34 samples.

Results

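The comparison set basal spikelets of wheat ears on day 9 against basal spikelets on day 6, both counted from the terminal spikelet stage, when the ear lays down its last spikelet. All plants were Triticum aestivum of the genotype shimai22 and were untreated, and no group carried an introduced allele. Each day had 3 basal libraries of total RNA, made from spikelet tissue, and central spikelets of the same days, also 3 libraries each, served as the comparison group. The series holds 34 libraries in 12 groups of position and day, sampled on days 6, 9, 12, 15, 21 and 27, and was designed to follow how basal and central spikelets differ. A gene model entered the comparison where its FPKM, a level scaled for transcript length and library total, was at least 1 in at least 2 of the 6 basal libraries. That kept 54421 of 162233 models.

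Each spikelet of a wheat ear makes several florets. Basal spikelets start late, lag behind central ones and often set fewer grains, which is why their early development is studied. Between the end of spikelet formation and heading, a spikelet passes from dividing meristem tissue to floral organs: anthers form, cells elongate and green tissue builds its chloroplasts. In such samples, histone and replication genes track dividing cells, light-harvesting genes track greening, and lipid-transfer and cuticle genes track the outer cell layers and the anther tapetum. In such bulk samples, a change in the share of a cell type and a change in the RNA of each cell cannot be told apart.

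The 6 basal libraries held 97584344 to 126139684 estimated counts, and 49060 to 52308 models reached an FPKM of 1 in each. Between 1.13 and 1.24% of a library's counts fell on its 10 most abundant models. Log-scale profiles correlated at 0.971 to 0.977 within a day and at 0.920 to 0.927 between the days, and no library stood apart from its group. Of the tested models, 47609 passed the FPKM rule on both days, 4510 on day 9 only, 1644 on day 6 only, and 658 by 1 library of each day. The labels do not say whether replicates came from separate plants, so the p-values below measure the spread between these libraries, which may be technical. The tissue label was checked against genes of floral organ identity. The SEPALLATA class of MADS-box genes, needed for all floret organs, summed to 206 to 224 FPKM on day 6 and 175 to 182 on day 9. The APETALA1 class summed to 308 to 323 and 281 to 308 FPKM, and the petal and stamen class to 99.5 to 125 and 74.1 to 89.2 FPKM. The stamen and carpel class (3 tested of 34 models) and the AGL6 class (2 tested of 24 models) were also present in all 6 libraries. Only models that passed the FPKM rule enter these sums, so their presence follows largely from that rule.

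Between day 6 and day 9, 21624 models (39.7%) differed in basal spikelets at an adjusted p under 0.05 (edgeR, quasi-likelihood F-test, Benjamini-Hochberg over the 54421 models). Of these, 11291 (20.7%) were higher on day 9 and 10333 (19.0%) lower. More than 2-fold higher were 3550 models (6.52%) and more than 2-fold lower 1115 (2.05%). These tallies include models that passed the FPKM rule only through the day on which they were high: of the 4510 that passed on day 9 only, 2692 were called higher, and of the 1644 that passed on day 6 only, 740 were called lower. Among the 47609 models that passed on both days, 8599 were higher and 9592 lower, and 1532 and 701 by more than 2-fold. The median difference over all tested models was 0.01 on the log2 scale, with quartiles at -0.27 and 0.32. The share of called models that were higher was 52.2%, but it was 66.6% and 69.7% when log2(FPKM + 1) and log2(FPKM + 0.1) were tested with limma. It was 48.3% with DESeq2 size factors and 48.8% with the DESeq2 Wald test, which put the majority on the lower side. The balance of the directions thus depends on the scale and the scaling. The share was 59.3 to 60.7% when 1 of the 3 day 6 libraries was left out. Without regard to the test, all 3 day 9 libraries lay above all 3 day 6 libraries in 33.2% of models and below them in 19.1%. The A, B and D subgenomes of this hexaploid gave 20.4, 20.3 and 21.5% of models higher and 19.0, 18.9 and 19.2% lower. Reads that fit several near-identical copies may have been split among them, and the rule used is not given in the sources used here. Among 246 copies of 131 named models on the other subgenomes, 186 (75.6%) were called in the same direction as the named one, 4 in the opposite direction and 56 were not called.

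Central spikelets moved as widely over the same days, with 24584 models called (45.2%), of which 11933 were higher (21.9%) and 12651 lower (23.2%). A model was called in both positions in the same direction 12383 times and in opposite directions 1325 times. A test of the difference between the basal change and the central change called 9332 models (17.1%), with 5031 (9.24%) more positive in basal spikelets and 4301 (7.9%) more negative. Only results of that test are used below to say that basal spikelets changed differently. The FPKM rule looked at basal libraries only. Models that passed only through basal day 9 are therefore favoured toward positive differences, and those that passed only through basal day 6 toward negative ones. The difference calls were not split by that rule.

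**Figure D1:**
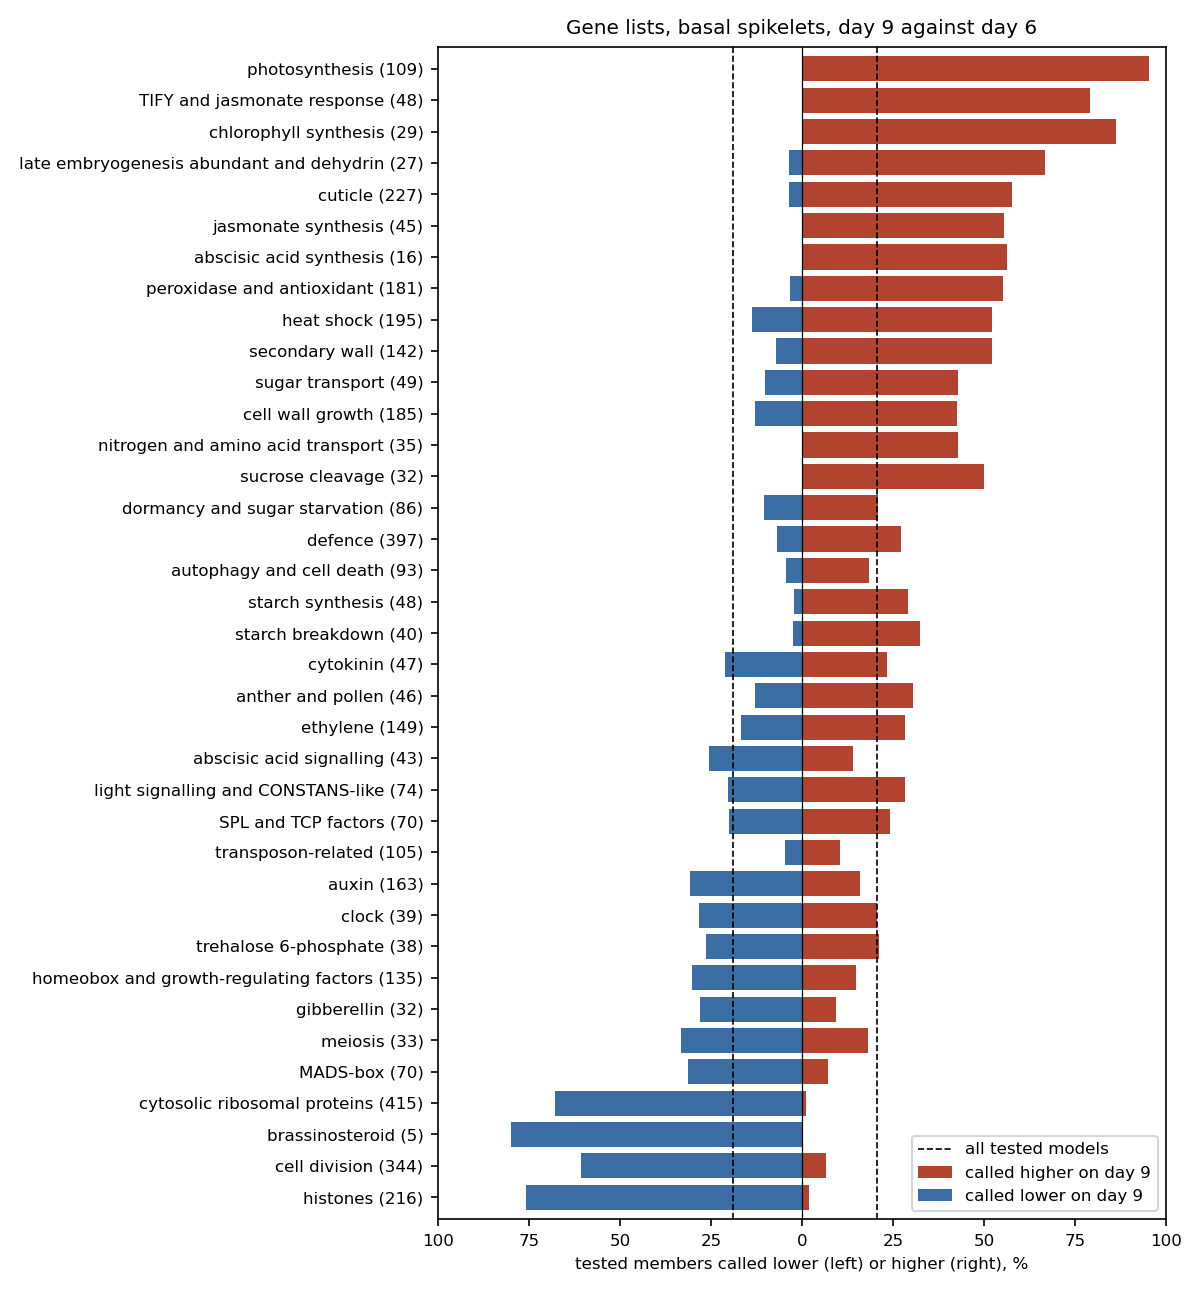
Share of the tested members of each gene list called higher (right, red) or lower (left, blue) in basal spikelets on day 9 against day 6, in percent, with the number tested in brackets, for lists with at least 5 tested members. The dashed lines mark the share of all tested models, 20.7% higher and 19.0% lower. Photosynthesis stands at the top and histones at the bottom.

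Greening genes made the most uniform group of the comparison. Of 235 photosynthesis models in the table, 109 were tested, 104 were higher on day 9 and 0 were lower, and 99 were higher by more than 2-fold. Their median log2 difference was 1.66 against 0.01 over all models. The summed level of the list went from 947 to 1203 FPKM in the day 6 libraries to 3657 to 4109 in the day 9 libraries, with no overlap. The enzymes of the Calvin cycle, which fix carbon dioxide, rose most within the list: all 12 were higher, with a median of 2.67. Phosphoribulokinase, which makes the acceptor of carbon dioxide, was at 1.81, 1.71 and 1.48 FPKM on day 6 and at 10.9, 11.54 and 12.22 FPKM on day 9 for the copy on chromosome 6B (TraesCS6B03G0849400, 537059444 to 537061795). That is 6.49-fold (log2 difference 2.70 ± 0.19 SE, adjusted p = 1.9e-11), and each day 9 library was above each day 6 library. The D copy, TraesCS6D03G0599500, rose alike, by 2.63 ± 0.20.

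The chlorophyll-binding proteins of the light-harvesting antennae followed, with 39 of 43 models higher and a median of 1.54. Photosystem and oxygen-evolving subunits had 53 of 54 models higher and a median of 1.68. Chlorophyll synthesis rose in 25 of 29 tested models, none fell, and the median was 0.87. Protochlorophyllide reductase A, the light-driven step of chlorophyll synthesis, was at 0.38, 0.39 and 0.52 FPKM on day 6 and 4.86, 4.23 and 4.35 FPKM on day 9 (TraesCS2A03G1294300, 9.66-fold, adjusted p = 2.12e-09). Photosynthesis models also rose in central spikelets, from a higher level, with a median of 1.87 for photosynthesis and 108 of 109 models higher. The basal change was smaller for 13 of the 109 photosynthesis models and for 11 of the 29 chlorophyll models, and larger for 1 and 0. The light signalling and CONSTANS-like list was mixed, with 21 of 74 models higher, 15 lower and a median of 0.03. Its lower share was near the 19.0% of all models. Among those that rose, the CONSTANS-LIKE 16-like zinc finger model TraesCS6D03G0654900 on 6D went from 1.38, 1.18 and 1.47 to 4.78, 4.53 and 4.13 FPKM.

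**Figure D2:**
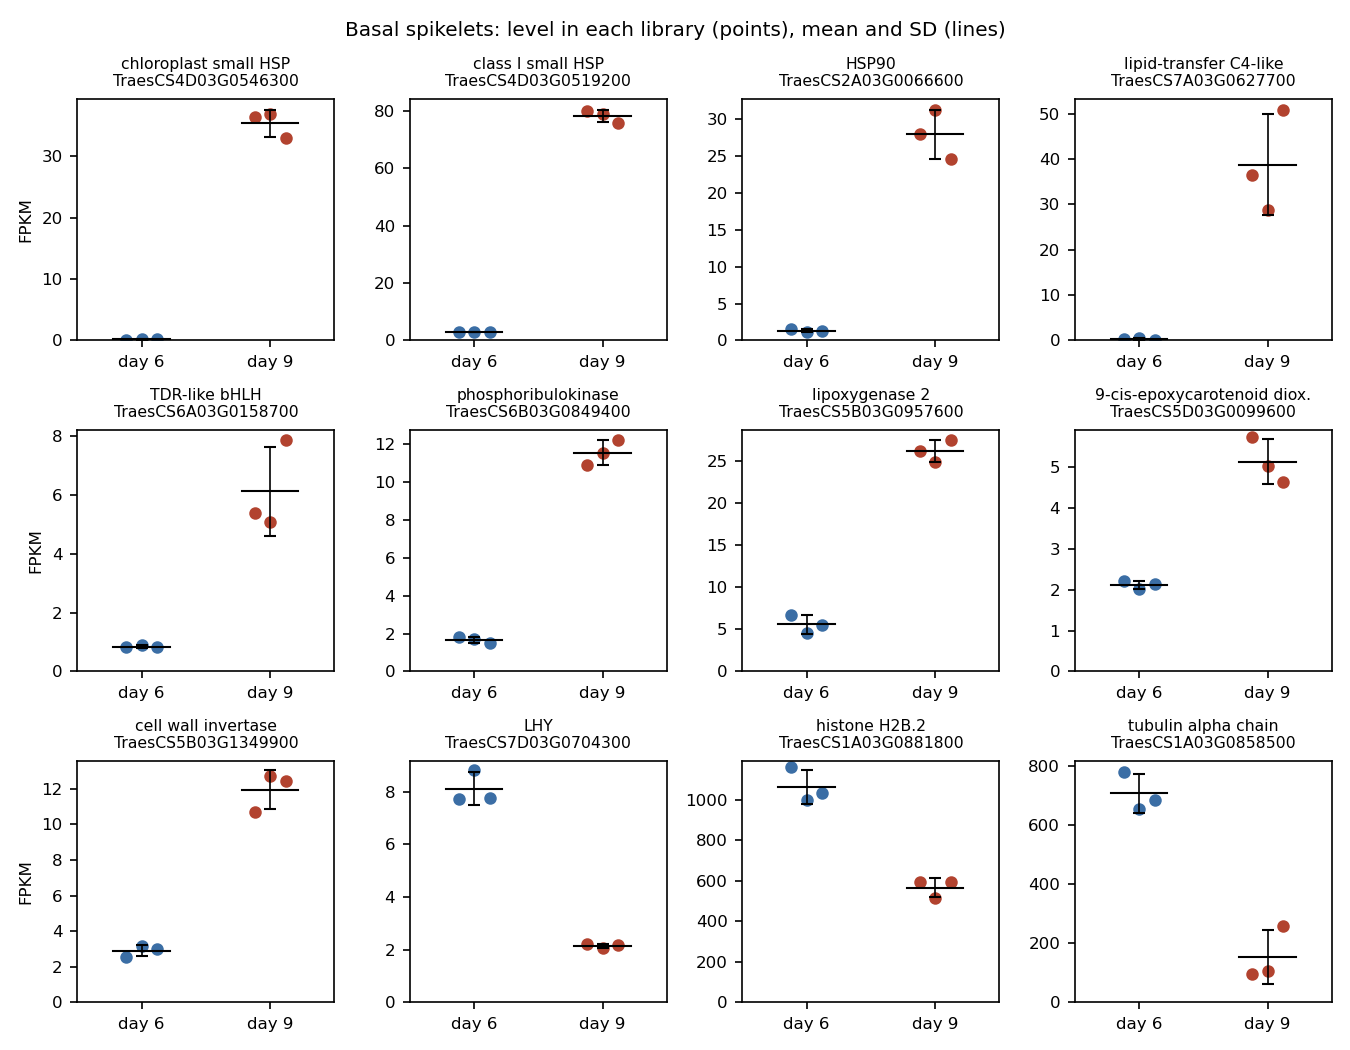
FPKM of 12 models in each basal library (points, blue for day 6 and red for day 9), with the mean and SD of 3 libraries (lines), each on its own linear axis from 0. In all 12 panels the libraries of the 2 days do not overlap; 9 models are higher and 3 (LHY, histone H2B.2 and the tubulin alpha chain) are lower on day 9.

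Heat shock genes gave the largest single changes. The small heat shock proteins, chaperones that hold unfolding proteins in solution, had 37 of 43 tested models higher on day 9, 1 lower, 35 higher by more than 2-fold, and a median log2 difference of 4.50. Of these 43, 24 passed the FPKM rule through day 9 only, the day on which they were high; of the 18 that passed on both days, 14 were higher and 1 lower. Their summed level was 150 to 209 FPKM on day 6 and 828 to 952 FPKM on day 9. A chloroplast-targeted member on chromosome 4D (TraesCS4D03G0546300, 384942617 to 384943785) was at 0.14, 0.30 and 0.18 FPKM on day 6 and at 36.28, 36.77 and 32.86 FPKM on day 9. Its log2 difference was 7.27 ± 0.30 (adjusted p = 8.91e-16). A class I member on 4D (TraesCS4D03G0519200, 365219134 to 365220001) rose from 3.01, 2.87 and 2.79 to 79.79, 78.97 and 75.83 FPKM, which is 25.3-fold (adjusted p = 8.46e-16). In both genes every day 9 library lay far above every day 6 library.

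A further class I copy, TraesCS4D03G0519600, was nearly silent on day 6, at 0, 0.06 and 0 FPKM, and stood at 46.82, 34.5 and 36.1 FPKM on day 9. Another small heat shock gene, TraesCS3B03G0310700, went from 0.06, 0.05 and 0 to 27.37, 18.96 and 21.26 FPKM. No fold is given for these 2, because their day 6 values rest on fewer than 12 counts per library. The class II gene TraesCS3A03G0245900 rose from 0.59, 0.50 and 0.90 to 44.85, 47.96 and 42.59 FPKM (63.1-fold, adjusted p = 4.32e-12). Larger chaperones moved with the small ones. A heat shock cognate 70 kDa gene, of the family that refolds proteins with ATP (TraesCS3D03G0780300), rose 36.6-fold, from 0.33, 0.36 and 0.33 to 14.02, 13.15 and 12.8 FPKM. An HSP90 gene, of the family that matures client proteins such as kinases (TraesCS2A03G0066600), rose 19.6-fold, from 1.51, 1.20 and 1.28 to 27.95, 31.21 and 24.61 FPKM.

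The family was not moved as a whole. Of 55 tested HSP70 models 26 were higher and 10 lower, with the lower share near the 19.0% of all models. The mitochondrial HSP70 models TraesCS5D03G0632400 and TraesCS5B03G0699800 fell by 0.65 and 0.66 on the log2 scale. Of 15 HSP90 models 9 were higher and 1 lower. Abundant members rose as well: heat shock protein 81-3 (TraesCS7A03G0555500) went from 56 ± 3.1 to 175 ± 16.6 FPKM and the HSP90 TraesCS7B03G0405300 from 46.3 ± 1.37 to 165 ± 8.86 FPKM (SD, n = 3). Disaggregases of the HSP101 and ClpB type, which pull proteins out of aggregates, had 9 of 18 higher, 5 lower, and a summed level of 42.5 to 44.3 FPKM on day 6 against 109 to 116 on day 9. Of 48 heat stress transcription factors, which switch on these chaperones, 13 were higher and 9 lower. The higher share was above the 20.7% of all models, and the lower share was near their 19.0%.

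Over the whole heat shock list, 102 of 195 tested models were higher, 27 lower and 70 higher by more than 2-fold, with a median of 0.43. Of those 195, 46 passed the FPKM rule through day 9 only. Among the 144 that passed on both days, 60 were higher, 25 lower and 29 higher by more than 2-fold. In central spikelets 9 of the 43 small heat shock models were higher, 7 were lower, and the median was -0.08. The test of the difference called 35 of the 43 small heat shock models more positive in basal spikelets and 0 more negative. Because 24 of the 43 were let in by basal day 9 only, this count is in part favoured by the FPKM rule. The chloroplast-targeted model stood at 0.31 ± 0.05 and 0.30 ± 0.11 FPKM in central spikelets on days 6 and 9, and its change differed between the positions by 7.33 ± 0.51 (adjusted p = 4.99e-11). In later basal samples the summed small heat shock level was 81.6 ± 13.7 FPKM on day 12, 81.4 on day 15 (2 libraries) and 81.2 ± 7.7 on day 21. On day 27 basal spikelets stood at 4483 ± 605 FPKM (SD, n = 3) and central spikelets at 1023 ± 119 FPKM.

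**Figure D3:**
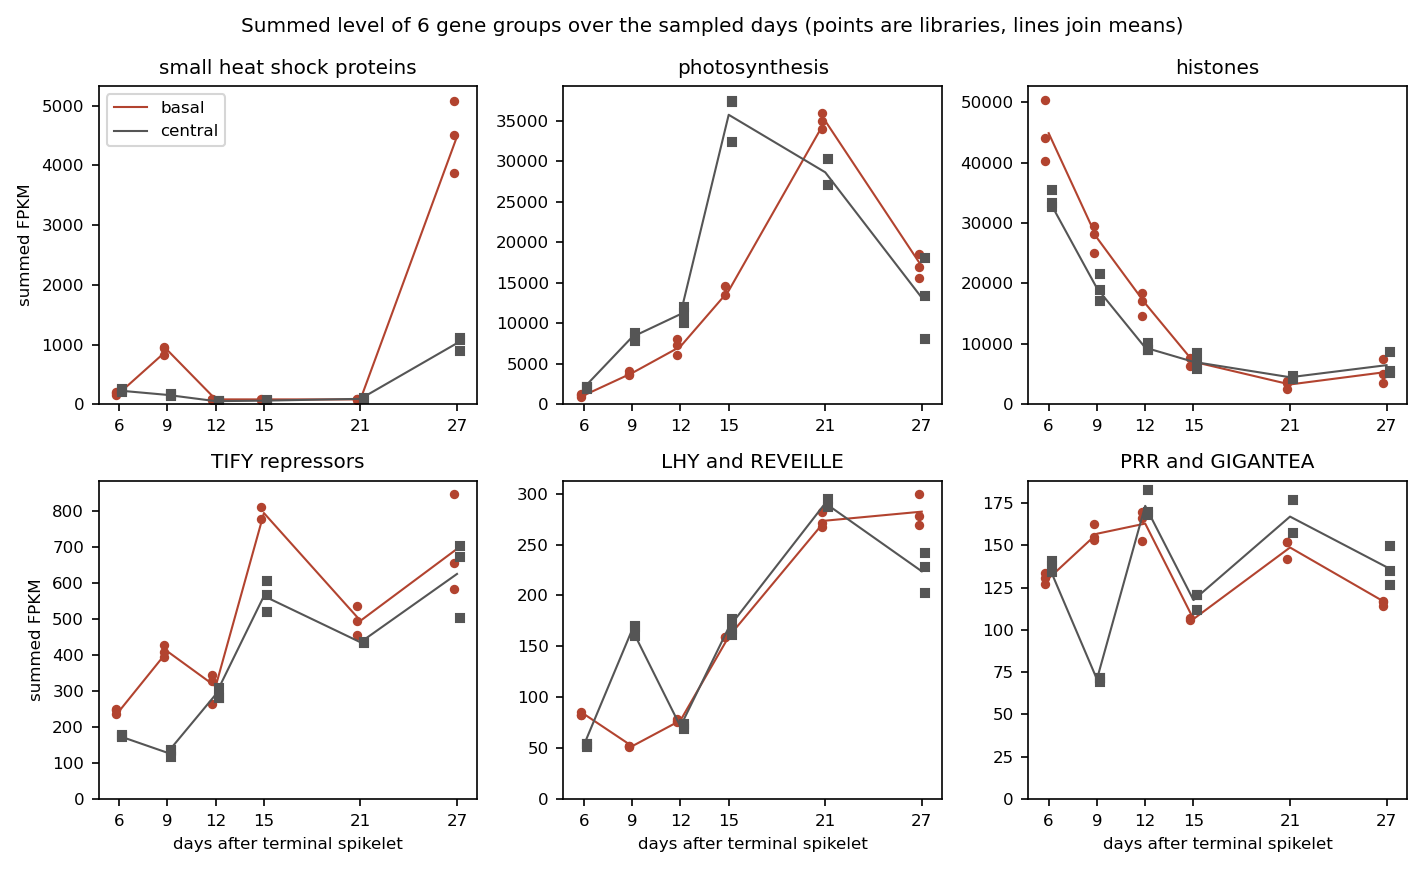
Summed FPKM of the tested members of 6 gene groups in every library over the 6 sampled days, in basal (red circles) and central (grey squares) spikelets, with lines joining the group means and linear axes from 0. Small heat shock proteins stand at 828 to 952 FPKM in basal spikelets on day 9 against 140 to 171 in central ones and are highest on day 27, and from day 6 to day 9 the LHY and REVEILLE group and the pseudo-response regulator (PRR) and GIGANTEA group go opposite ways in the 2 positions.

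Many jasmonate genes, though not those of every step, rose in basal spikelets. Jasmonate is a lipid-derived hormone of wounding, defence and stamen maturation. Its synthesis runs from lipoxygenases through allene oxide synthase and cyclase to 12-oxophytodienoate reductase, and TIFY (JAZ) proteins repress its responses while being induced by it. The title of the study names jasmonate and abscisic acid, so the direction of these lists is not independent of it. Of 36 tested TIFY repressor models 32 were higher, 0 lower and 25 higher by more than 2-fold, and 14 of the 36 had passed the FPKM rule through day 9 only. Of the 22 that passed on both days 18 were higher. Their sum went from 236 to 250 FPKM on day 6 to 394 to 429 FPKM on day 9. The TIFY 11e-like model TraesCS7B03G0283400 went from 0.97, 1.72 and 1.48 to 6.12, 5.05 and 4.12 FPKM (3.42-fold, adjusted p = 0.000336). The 6 tested coronatine-insensitive receptor models, which bind the active hormone, had 0 calls in either direction and differences of -0.17 to 0.02.

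In the synthesis list, 25 of 45 tested models were higher and 0 lower, with a median of 0.59. Of those 45, 9 passed the FPKM rule through day 9 only, and 19 of the 34 that passed on both days were higher. By step, 11 of 21 lipoxygenases, 11 of 12 allene oxide synthases and cyclases, and 2 of 9 12-oxophytodienoate reductases were higher. The share of the reductases lies near the 20.7% of all models. A lipoxygenase 2 on 5B (TraesCS5B03G0957600, 563701305 to 563704954) rose 4.39-fold, from 6.71, 4.53 and 5.54 to 26.17, 24.92 and 27.57 FPKM (adjusted p = 1.8e-08). Its neighbour TraesCS5B03G0957700 rose from 0.61, 0.58 and 0.54 to 2.51, 2.77 and 2.95 FPKM. The 60 kDa jasmonate-induced protein TraesCS2A03G1114900 also rose, from 0.35, 0.24 and 0.20 to 2.83, 2.52 and 3.71 FPKM. In central spikelets the TIFY models had 1 higher and 13 lower, and the synthesis list 7 higher and 10 lower. The difference between positions was called positive for 25 of 36 TIFY models and 22 of 45 synthesis models, and negative for 0 of either. These counts are in part favoured by the FPKM rule, which let in 14 of the TIFY and 9 of the synthesis models by basal day 9 only. For the 60 kDa protein TraesCS2A03G1114900 the difference was not called (-0.04, adjusted p = 0.964): that gene rose in both positions.

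Abscisic acid, a hormone of water stress and dormancy, showed a partial change. In its synthesis list 9 of 16 tested models were higher and 0 lower. Of those 16, 4 passed the FPKM rule through day 9 only, and 6 of the 12 that passed on both days were higher. Of 6 models of 9-cis-epoxycarotenoid dioxygenase, the rate-limiting step, 3 were higher, and the sum went from 12.4 to 12.7 FPKM on day 6 to 20.9 to 24.9 FPKM on day 9. The 5D copy TraesCS5D03G0099600 (39036436 to 39039005) rose from 2.21, 2.01 and 2.13 to 5.73, 5.04 and 4.65 FPKM (2.28-fold, adjusted p = 0.000127). All 6 fell in central spikelets, and the difference between positions was called for all 6. Zeaxanthin epoxidase, an earlier step, rose in 4 of 6 models in basal and in 6 of 6 in central spikelets. Of these 6, 3 passed the FPKM rule through day 9 only, and 1 of the 3 that passed on both days was higher in basal spikelets. The 4B model TraesCS4B03G0305100, which passed through day 9 only, went from 0.54, 0.69 and 0.65 to 2.72, 2.64 and 2.21 FPKM. The signalling list had 6 models higher and 11 lower among 43, and 6 or 7 lower without 1 of several libraries. ABSCISIC ACID-INSENSITIVE 5-like protein 2, of a family of bZIP factors that carry the hormone's response, fell from 3.11, 2 and 2.74 to 0.62, 0.41 and 0.57 FPKM (TraesCS4A03G0272300, adjusted p = 9.94e-06).

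Late embryogenesis abundant proteins and dehydrins, which protect cells from drying, rose in 18 of 27 tested models and fell in 1. Of those 27, 7 passed the FPKM rule through day 9 only. Among the 20 that passed on both days, 11 were higher and 1 lower. Dehydrin DHN3 (TraesCS6D03G0772700), which passed through day 9 only, went from 1.08, 0.63 and 0.63 to 4.78, 3.79 and 3.86 FPKM (4.96-fold, adjusted p = 3.71e-08). The Lea14-A model TraesCS1A03G1031600 went from 6.08, 5.73 and 7.62 to 23.7, 21.1 and 24.53 FPKM, and it fell in central spikelets (adjusted p = 0.00025). The difference between positions was positive for 12 of the 27 models and negative for 0. Only 27 of 95 models of this list passed the FPKM rule, so most of the family was not tested.

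**Figure D4:**
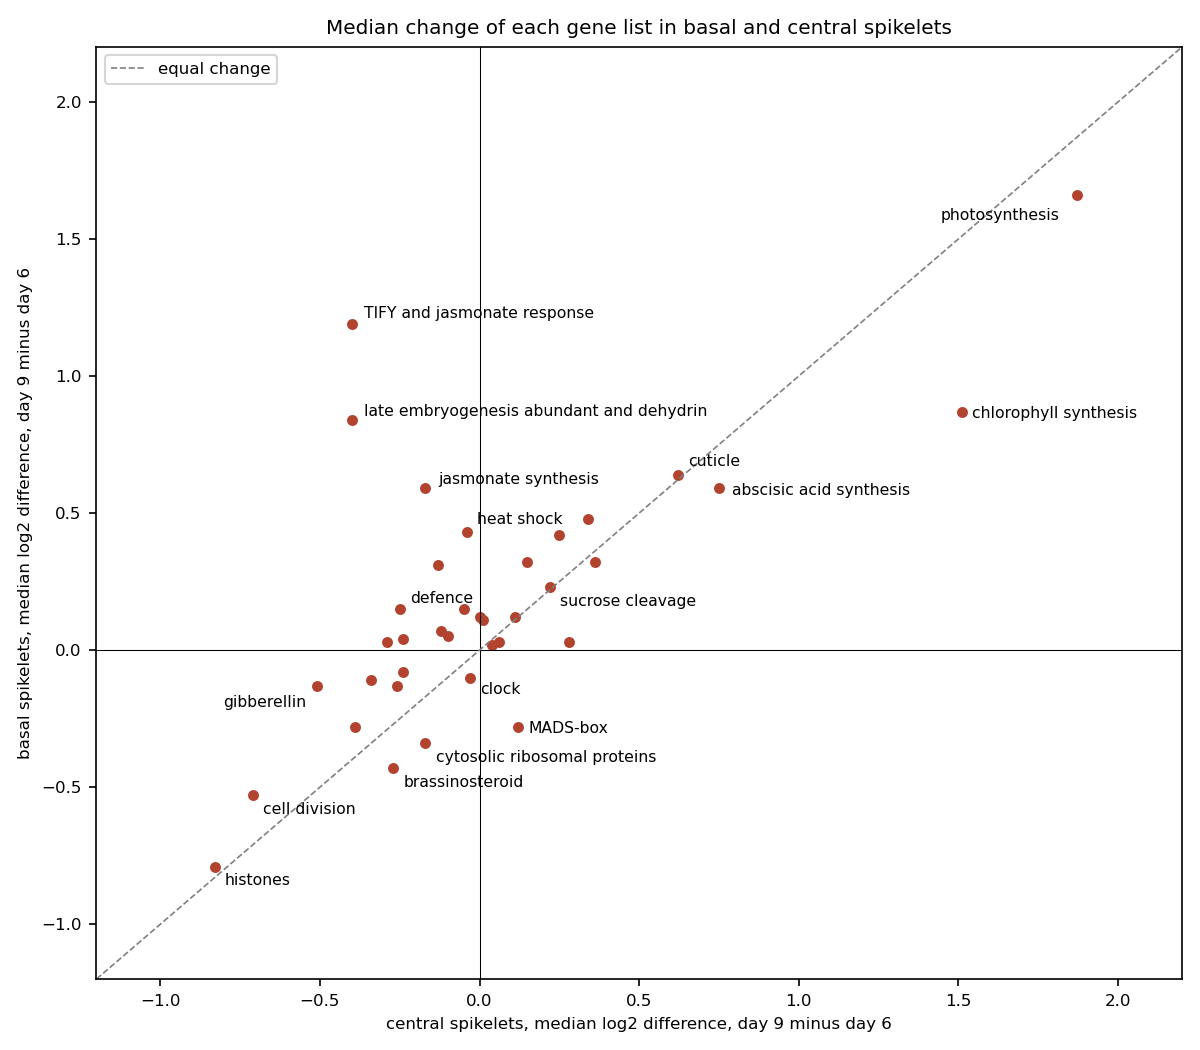
Median log2 difference between day 9 and day 6 over the tested members of each gene list, in central (x axis) and basal (y axis) spikelets, with the dashed line marking equal change. Photosynthesis, cuticle, cell division and histones lie near the line, while the jasmonate, late embryogenesis abundant and heat shock lists lie above it and the MADS-box list below it.

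Cuticle genes rose in part, while the anther and pollen list was mixed, with 14 of 46 models higher, 6 lower and a median of 0.05. Of those 46, 13 passed the FPKM rule through day 9 only. Among the 30 that passed on both days, 2 were higher and 6 lower. Lipid-transfer proteins, small secreted carriers of wax and pollen-wall lipids, had 44 of 59 tested models higher and 0 lower, and of the 34 that passed the FPKM rule on both days 22 were higher. Their sum went from 800 to 1006 FPKM to 2110 to 2435 FPKM. A C4-like member (TraesCS7A03G0627700, 280419828 to 280420562 on 7A) was at 0.25, 0.54 and 0.20 FPKM on day 6 and at 36.6, 28.82 and 50.75 FPKM on day 9. Its 7B copy TraesCS7B03G0453900 went from 0, 0.27 and 0.14 to 19.17, 14.75 and 27.01 FPKM. A 2P-like member, TraesCS1D03G0422300, had no count in the 3 day 6 libraries and stood at 6.61, 3.82 and 9.20 FPKM on day 9, at least 20.1-fold above a floor of 12 counts per library. The spread among the day 9 libraries of these genes was wider than for the heat shock genes, with replicate 3 highest and replicate 2 lowest in each of the 3.

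The abundant lipid-transfer models moved as well: TraesCS3A03G0824100 went from 275.35, 214.15 and 245.2 to 620.1, 552.81 and 567.04 FPKM, and TraesCS2A03G1118900 from 29.69, 24.93 and 30.02 to 174.59, 163.55 and 153.41 FPKM. The whole cuticle list had 131 of 227 models higher and 8 lower, and 80 higher and 4 lower among the 159 that passed on both days. A GDSL lipase, of a family of secreted esterases (TraesCS6D03G0857000), rose 9.64-fold, from 1.41, 1.22 and 1.32 to 13.57, 13.33 and 13.9 FPKM (adjusted p = 5.13e-13). WIN1-like factors, which switch on wax and cutin genes in Arabidopsis, rose too, with TraesCS7A03G0916200 going from 0.22, 0.21 and 0.22 to 2.28, 1.92 and 2.12 FPKM. The ECERIFERUM 1-like wax gene TraesCS6A03G0623300 fell by 0.48 on the log2 scale. The ECERIFERUM 3-like TraesCS6B03G0452400 fell by 0.41, a call lost without replicate 1 of day 6 or replicate 2 of day 9.

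In central spikelets 130 models of the cuticle list were higher and 21 lower. The test of the difference between positions called 28 of the 227 positive and 39 negative, so the list did not change alike in both. The C4-like 7A gene went from 9.01 ± 1.25 to 282 ± 40.2 FPKM there, so its level in basal spikelets on day 9 was still below the central one. The anther-specific MZm3-3-like gene TraesCS5D03G0721500 showed the same order, at 0.13, 0.18 and 0.05 FPKM and then 8.99, 4.67 and 10.13 FPKM in basal spikelets, against 1.40 ± 0.48 and 42.8 ± 3.89 FPKM in central ones. An osmotin-like gene (TraesCS4B03G0335300) went from 0.08, 0.28 and 0.26 to 13.52, 9.78 and 19.72 FPKM.

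Tapetum regulators are bHLH factors of the anther layer that feeds pollen, and in rice TDR acts upstream of EAT1. The 6 TDR-like and 5 tested EAT1-like models passed the FPKM rule through day 9 only, so their counts in basal spikelets follow from that choice, and 5 further EAT1-like models were not tested. The TDR-like models were higher on day 9 in basal spikelets, with a median of 2.87, and rose in central ones. TraesCS6A03G0158700, on chromosome 6A from 41943492 to 41946607, went from 0.82, 0.89 and 0.83 to 5.41, 5.10 and 7.87 FPKM (6.80-fold, adjusted p = 5.42e-09). The 5 EAT1-like models were higher on day 9 in basal spikelets and fell in central ones. Their sum was 2.66 to 3.63 FPKM on day 6 and 6.40 to 12.8 on day 9 in basal spikelets. In central spikelets it went from 17 to 20.3 FPKM down to 4.54 to 11.1 FPKM. The 2 UDT1-like models were not called in basal spikelets.

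Among meiosis genes, the recombinase DMC1, which pairs homologous chromosomes, rose from 2.09, 2.15 and 2.55 to 5.55, 5.45 and 4.49 FPKM for TraesCS5B03G0364100 (2.14-fold, adjusted p = 3.11e-05), and by 0.59 for the D copy TraesCS5D03G0353500. MRE11, of the complex that trims DNA breaks, fell: TraesCS2A03G1225300 went from 7.82, 9.88 and 7.53 to 5.19, 5.09 and 4.98 FPKM. The list as a whole had 6 of 33 models higher and 11 lower, or 7 lower without replicate 2 of day 6. Its higher share was near the 20.7% of all models.

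Genes of dividing cells fell. Of 216 tested histone models 164 were lower, 4 were higher and the median was -0.79. Histones H2B fell in 49 of 56 models, H2A in 58 of 72, H3 in 36 of 53, H4 in 13 of 18 and the linker H1 in 8 of 17. Their summed level went from 40206 to 50288 FPKM to 25014 to 29468 FPKM. Histone H2B.2 on 1A (TraesCS1A03G0881800, 543913915 to 543914376) went from 1160.73, 997.99 and 1036.27 to 593.35, 515.27 and 593.28 FPKM (log2 difference -1.0, adjusted p = 0.00189). Without replicate 1 of day 6, 100 histone models were lower in place of 164, and 152 ribosomal protein models in place of 282. Against the trend, histone H2A-like TraesCS1A03G0721500 rose by 0.42 and H2AX, the form marked at DNA breaks, by 0.90 (TraesCS4D03G0097100).

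In the cell division list, 209 of 344 models were lower and 23 higher. Replication licensing factors and DNA polymerases fell most evenly, with 54 of 59 lower, 0 higher and a median of -0.98. Cyclins had 34 of 66 lower and 4 higher, and kinesins 78 of 139 lower and 16 higher. The kinesin-like KIN-14H of 2A (TraesCS2A03G1125000) went from 19.31, 21.91 and 20.84 to 12.49, 14.05 and 13.48 FPKM. Mitotic checkpoint BUB3.1-like models went the other way, TraesCS2D03G0403400 from 0.48, 0.50 and 0.76 to 2.69, 2.21 and 2.93 FPKM. E2F factors, which drive entry into DNA replication, fell in 12 of 15 models and rose in 0. Cytosolic ribosomal proteins fell in 282 of 415 models and rose in 4, but by small steps, with a median of -0.34 and 3 models lower by more than 2-fold. Central spikelets lost the same groups: 183 histones and 218 division models were lower there. The difference between positions was called for 5 of 216 histones, and for 37 of 344 division models with both signs (16 positive, 21 negative). For ribosomal proteins it was negative for 52 and positive for 6 of 415.

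Single genes fell further than these groups. Argonaute MEL1, which loads small RNAs in germ cells in rice, went from 26.35, 29.58 and 24.35 to 8.85, 8.06 and 6.03 FPKM (TraesCS5B03G1107400, 3.73-fold lower, adjusted p = 1.5e-06). A CMT1-like DNA methyltransferase (TraesCS4A03G0156400) went from 5.17, 5.50 and 4.74 to 1.97, 1.23 and 1.45 FPKM. The Dof zinc finger factor TraesCS4B03G0185100 went from 5.84, 4.55 and 5.41 to 1.43, 0.70 and 0.72 FPKM, 5.95-fold lower. These 3 fell in central spikelets too. An alpha tubulin, TraesCS1A03G0858500, fell from 781.78, 656.1 and 686.08 to 95.87, 106.32 and 258.53 FPKM (adjusted p = 0.00335), with replicate 3 of day 9 highest of its group. Its log2 difference was -2.29, and -2.91 without that library. It stood at 899 ± 63.6 FPKM on day 12.

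Some meristem and organ identity factors fell. In the homeobox and growth-regulating list 41 of 135 models were lower and 20 higher, and homeobox-leucine zipper factors were 19 higher to 12 lower among 69. Growth-regulating factors, which keep organ cells dividing, were lower in 5 of 9 models and higher in 0; GRF9-like TraesCS4D03G0032000 went from 16.33, 16.12 and 13.71 to 6.67, 5.92 and 6.80 FPKM (adjusted p = 1.83e-07). KNOTTED-class homeobox factors, which hold meristems open, were lower in 7 of 18 and higher in 0, with sums that overlapped between the days at 106 to 120 and 105 to 109 FPKM. TraesCS4B03G0126000 went from 7.01, 4.82 and 6.88 to 2.82, 2.05 and 1.55 FPKM. YABBY 5-like TraesCS2D03G0872700, of a family of lateral organ factors, went from 14.66, 14.18 and 13.04 to 5.37, 4.37 and 4.19 FPKM. PLT2, an AP2-like factor of dividing zones (TraesCS5B03G1012200), went from 2.93, 2.24 and 2.11 to 0.71, 0.53 and 0.65 FPKM. TEOSINTE BRANCHED 1-like TraesCS5D03G0003700, which restrains branching in maize, went from 7.72, 6.46 and 7.41 to 4.55, 3.59 and 2.64 FPKM. TCP factors as a whole had 14 of 36 lower and 3 higher, while SPL factors had 14 of 34 higher and 0 lower. Among those that passed the FPKM rule on both days, 10 of 30 TCP factors were lower and 8 of 28 SPL factors higher.

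Of 70 tested MADS-box models, 22 fell and 5 rose in basal spikelets, with a median of -0.28. In central spikelets 15 were higher and 2 lower, and the difference was called negative for 22 and positive for 2. The SEPALLATA class accounted for 7 of the negative differences among its 15 tested models, and its sum went from 252 ± 7.45 to 320 ± 30.6 FPKM in central spikelets. TaAGL14 (TraesCS3D03G0654800) fell most within the list, from 91.23, 82.2 and 91.43 to 42.6, 35.71 and 31.63 FPKM, 2.57-fold lower with adjusted p = 1.01e-08; that gene fell in central spikelets too. MADS1-like TraesCS4D03G0586600 rose by 0.28, from 14.36, 16.79 and 16.51 to 21.69, 19.42 and 20.49 FPKM.

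Clock genes split into opposite groups. The morning factors LHY and REVEILLE had 10 of 14 models lower, 1 higher and 7 lower by more than 2-fold. Of those 14, 3 passed the FPKM rule through day 6 only and 1 through day 9 only. Among the 10 that passed on both days, 7 were lower, 0 higher and 4 lower by more than 2-fold. The pseudo-response regulators and GIGANTEA, which act later in the day, had 7 of 14 higher and 1 lower. LHY on 7D (TraesCS7D03G0704300, 372133910 to 372149373) went from 7.74, 8.83 and 7.76 to 2.22, 2.05 and 2.17 FPKM (4.01-fold lower, adjusted p = 1.6e-11), and its 7B copy TraesCS7B03G0535400 from 12.87, 13.6 and 11.5 to 4.41, 3.70 and 3.62 FPKM. GIGANTEA 3 (TraesCS3A03G0253100) went from 10.52, 10.39 and 10.6 to 14.36, 16.51 and 15.39 FPKM. APRR3 (TraesCS4D03G0224500) went from 12.51, 13.43 and 12.48 to 17.24, 17.2 and 18.26 FPKM. The libraries of a day agreed closely in each of these genes.

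Central spikelets moved the opposite way. Their LHY and REVEILLE sum went from 53.1 ± 1.79 to 166 ± 5.03 FPKM, with 10 of 14 models higher and 0 lower. Their sum of regulators and GIGANTEA went from 138 ± 3.25 to 70.8 ± 1.2 FPKM. The difference between positions was called negative for 11 of 14 and positive for 11 of 14 models of the 2 groups. The hour of sampling is not in the labels, and the part of the time of day in any difference above was not tested. On day 12 the LHY and REVEILLE sums were 77.2 ± 1.69 FPKM in basal and 71.3 ± 2.64 in central spikelets.

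Sugar genes rose in part. Of 32 tested sucrose-cleaving enzymes 16 were higher and 0 lower. The invertases of the cell wall and vacuole, which split sucrose into hexoses outside the cytosol, rose in 7 of 8 models, and their sum went from 24.4 to 28.3 FPKM to 59.5 to 62.1 FPKM. An insoluble isoenzyme 4-like invertase on 5B (TraesCS5B03G1349900, 706796360 to 706801315) rose from 2.58, 3.17 and 2.99 to 10.72, 12.71 and 12.46 FPKM (3.85-fold, adjusted p = 1.02e-10), and rose less in central spikelets. Sucrose synthase 1 on 4A (TraesCS4A03G1116300) rose 5.38-fold, from 0.95, 1.12 and 0.93 to 5.27, 5.81 and 6.06 FPKM, and rose more in central spikelets. The sum over all 9 tested sucrose synthases overlapped between the days, at 91 to 98.1 and 94.5 to 103.9 FPKM.

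Sugar transporters had 21 of 49 models higher and 5 lower. Among the 38 that passed the FPKM rule on both days, 13 were higher and 4 lower. SWEET15-like TraesCS7B03G0136700, of the family of sugar exporters, fell from 18.02, 16.23 and 14.22 to 12.67, 8.82 and 9.84 FPKM, a call lost without replicate 1 of day 6 or replicate 2 of day 9. The large subunit of glucose-1-phosphate adenylyltransferase, the first committed step of starch, rose on 5D (TraesCS5D03G1065400) from 2.21, 2.43 and 2.69 to 6.52, 5.98 and 6.24 FPKM. Trehalose 6-phosphate genes were split 8 higher to 10 lower among 38, with the higher share near the 20.7% of all models. Trehalose-phosphate phosphatase 4 (TraesCS6B03G0936900) went from 6.71, 4.84 and 6.72 to 3.01, 2.43 and 1.54 FPKM. The dormancy-associated genes, abundant in resting buds, were higher in 5 of 8 tested models: the 1-like TraesCS4B03G0155100 went from 32.54, 28.54 and 29.21 to 103.72, 76.06 and 74.36 FPKM (2.64-fold, adjusted p = 2.12e-07), against 7.49 ± 0.64 and 9.70 ± 0.59 FPKM in central spikelets. Its change differed between positions by 1.04 ± 0.23 (adjusted p = 0.00227). Over the full dormancy and sugar starvation list, 18 of 86 models were higher and 9 lower, with the higher share near that of all models.

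Wall and redox lists held more models higher than lower. The same held among models that passed the FPKM rule on both days. There, wall growth had 63 higher to 23 lower, secondary wall 51 to 10 and antioxidant enzymes 77 to 6. The wall growth list had 79 of 185 models higher and 24 lower, against 82 and 29 in central spikelets, with expansins, which loosen walls, at 25 of 52 higher and 3 lower. Expansin-B16 (TraesCS6D03G0537100) rose 9.73-fold, from 0.76, 0.51 and 0.97 to 7.62, 7.59 and 8.23 FPKM. Endoglucanases split 12 higher to 10 lower, and endoglucanase 3 on 1A (TraesCS1A03G0880600) went from 13.25, 11.94 and 11.76 to 4.66, 3.39 and 4.17 FPKM. Secondary wall genes rose in 74 of 142 models and fell in 10, against 60 and 21 in central spikelets; cinnamoyl-CoA reductase 2-like TraesCS5B03G0701700, of the lignin pathway, went from 2.95, 3.67 and 3.51 to 8.55, 7.96 and 7.57 FPKM. Peroxidases and other antioxidant enzymes rose in 100 of 181 and fell in 6, against 85 and 17 in central spikelets, and glutathione S-transferase GSTU6 (TraesCS7D03G1105100) went from 0.69, 1.16 and 1.1 to 6.45, 5.41 and 6.33 FPKM.

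Defence genes rose in 108 of 397 tested models and fell in 27, and 48 rose by more than 2-fold. Of those 397, 59 passed the FPKM rule through day 9 only. Among the 323 that passed on both days, 69 were higher, 25 lower and 18 higher by more than 2-fold. That higher share is near the 8599 of 47609 over all models that passed on both days. A basic endochitinase, which degrades fungal walls (TraesCS2B03G0098400), went from 0.08, 0.18 and 0.12 to 2.70, 2.44 and 1.93 FPKM, and WRKY57 (TraesCS2D03G0604500) from 0.47, 0.34 and 0.44 to 3.70, 3.39 and 3.32 FPKM. Both of these models passed the FPKM rule through day 9 only. In central spikelets 56 defence models were higher and 146 lower, and the difference was called positive for 116 and negative for 8. WRKY factors showed it with 43 of 95 positive and 0 negative. Across all 1481 tested transcription factor models, 369 were higher and 341 lower, shares somewhat above those of all models (20.7% and 19.0%). By more than 2-fold, 171 were higher and 73 lower, also above the 6.52% and 2.05% of all models. NAC factors had 24 of 50 higher and 6 lower, and bHLH factors 52 of 137 higher and 23 lower.

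Growth hormone genes were mixed. Auxin response factors, which carry auxin's effect on transcription, were lower in 31 of 63 models and higher in 3, and ARF4-like TraesCS3D03G0956500 went from 74.83, 82.19 and 77.22 to 46.96, 48.05 and 48.86 FPKM. SAUR36-like TraesCS7D03G0618900, of an auxin-induced family, rose from 1.99, 2.36 and 2.63 to 8.30, 8.06 and 9.51 FPKM. Of 32 gibberellin models 9 were lower, 4 or 5 without 1 of several libraries, and 3 were higher, with 17 lower in central spikelets, and gibberellin-regulated protein 5-like TraesCS7D03G0469300 rose from 15.49, 12.84 and 14.49 to 35.9, 32.86 and 30.37 FPKM. The difference between positions was called positive for 13 and negative for 1 of these 32. Brassinosteroid genes fell in 4 of the 5 tested (1 without replicate 1 of day 6), among them the BZR1 homolog TraesCS7D03G0867600, which went from 14.6, 13.39 and 14.31 to 10.34, 9.84 and 9.22 FPKM. Cytokinin genes were 11 higher to 10 lower among 47, and ethylene genes 42 higher to 25 lower among 149. Both cytokinin shares and the lower share of ethylene genes lie near the 20.7% and 19.0% of all models.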

How the data were processed

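The authors deposited 1 table with, for each of the 34 libraries, estimated counts without normalization and FPKM, scaled by the authors for transcript length and library total, per the file headers and values. Of the submitters' processing notes, Bowtie 0.12.2 and the mouse builds mm8 and mm9 cannot describe wheat values; aligner, counter and strand setting are not given in the sources used here. Among 90490 high-confidence models, 84.9% overlapped RefSeq coding genes placed on the Chinese Spring assembly RefSeq v2.1, against 6.3% after a 5 Mb shift, so positions are given in that build. No base sequence was used here.

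With edgeR 4.0.16 under R 4.3.3, the counts got TMM factors, and a quasi-likelihood model with 12 group means took in all 34 libraries for the models that met the FPKM rule. The second-highest FPKM of 1658 models lay between 1 and 1.1 and of 1666 between 0.9 and 1. Adjusted p-values are Benjamini-Hochberg over all 54421 models, two-sided. Log2 differences carry approximate SEs (the difference over the square root of F). The tested rows hold 98.22 to 98.56% of the counts of these 6 libraries. Of them 9381 (17.2%) are low-confidence and 4767 have no description. Small counts fell at multiples of 4 in 34.5 to 35.6% of cases against 25% if spread evenly, so a group at 0 got a floor of 12 counts per library. The SEs and SDs hold the spread between these libraries, while the floors cover counting error only. On simulated basal day 9 minus day 6 data over 54421 models, 67, 67 and 66 well-counted models were changed 1.5-, 2- and 4-fold. All others were left unchanged, and the spread was taken from its trend over level. The test found 37.3%, 95.5% and 100% of these, and 8.8% of 170 calls were false. In the real comparison 39.7% of models were called and many have few counts, so these rates do not carry over to it.

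Members and lists (words in the deposited names and descriptions), and the subgroups within lists, were chosen with earlier results of these data known; subgroups were cut after their lists' results were seen. Lists give counts and medians, with no test of their own. Named models follow a rule: the 12 highest and 12 lowest log2 differences among called, described, high-confidence models with FPKM of at least 5 and no overlap between days, 1 per description; 6 and 6 transcription factors by the same rule; per list the 2 smallest p-values in each direction with FPKM of at least 2; 6 and 6 for the difference between positions; the 6 most abundant called with more than 2-fold change each way; and copies on other subgenomes. A description counted where it names a function. The 6 and 6 for the difference between positions also had to meet the limits on description, confidence, FPKM and overlap. DESeq2 1.42.0, limma 3.58.1, other filters, a replicate block and leaving out libraries were tried as alternatives.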

Additional observations from a re-analysis of the deposited data

Results flagged for a closer look

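The 12 models below had the smallest p-values in the test of the difference between the basal and the central change from day 6 to day 9, 6 in each direction. Values are basal minus central, on the log2 scale, and each was called by edgeR after Benjamini-Hochberg adjustment. Polyamine oxidase 4, which breaks down spermine (TraesCS2B03G1446000), differed by 3.68: it rose from 9.68, 9.57 and 10.53 to 21.65, 20.68 and 20.85 FPKM in basal spikelets and went from 18.3 to 2.88 FPKM on average in central ones. Phosphomethylpyrimidine synthase, of thiamine synthesis (TraesCS4D03G0034600), differed by 3.09, at 6.92, 7.31 and 7.14 and then 20.72, 18.15 and 20.77 FPKM in basal spikelets. Ferritin-1, an iron store (TraesCS5D03G0385900), differed by 2.55, the class I small heat shock model TraesCS4D03G0519200 by 4.74, APRR3 (TraesCS4D03G0224500) by 2.45 and GIGANTEA 3 (TraesCS3A03G0253100) by 2.08.

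On the negative side, a MYB-related model (TraesCS7B03G1286300) differed by -5.41, going from 2.27, 2.66 and 2.77 to 0.79, 0.73 and 0.83 FPKM in basal spikelets and from 0.74 to 9.17 FPKM on average in central ones. LHY on 7B (TraesCS7B03G0535400) differed by -4.22, LNK4-like (TraesCS1D03G0182500), of a family of clock-linked genes, by -3.89, and a UVR8-like receptor model (TraesCS3D03G0791200) by -3.34. REVEILLE 6-like (TraesCS7D03G0033000) differed by -2.71 and the B-box zinc finger 18-like model (TraesCS5A03G0769500) by -2.52.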

How the results depend on the processing

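Restricting the fit to models with a mean FPKM of at least 5 left 23574 models and gave 11599 calls, 6300 higher and 5299 lower, and 5153 calls for the basal minus central difference, 2530 positive and 2623 negative; 160 of 310 named results were then called the same way. Models left out by this filter were not counted apart from those that stayed and lost the call, and the cause of the lower counts was not tested. With limma on log2(FPKM + 0.1), 6380 models were lower. The cause of that lower count was not tested. Over leaving out 1 library each, the basal count ran from 18229 to 19188 (higher 9832 to 11643, lower 7414 to 8853), the difference count from 7855 to 8418 (positive 4249 to 4818, negative 3397 to 3859), lists with more members higher than lower from 25 to 26, and named results called the same way from 292 to 301. Some lists changed their leading direction. Cytokinin did so under DESeq2 size factors (9 higher) and no filter (13). Under the FPKM of at least 5, abscisic acid signalling (3 lower), anther and pollen (1 higher), clock (6 lower), gibberellin (0) and trehalose 6-phosphate (1) did. Clock (10 lower) and trehalose (8) turned under limma on log2(FPKM + 1). Under limma on log2(FPKM + 0.1), abscisic acid signalling (8), clock (10), gibberellin (2), homeobox and growth-regulating factors (27) and trehalose (8) turned. Not all of these lists were near balance in the main fit. Homeobox and growth-regulating factors stood there at 20 higher to 41 lower and gibberellin at 3 to 9. Anther and pollen stood at 14 to 6 and abscisic acid signalling at 6 to 11. With the replicate number as a block, 21268 models were called for basal spikelets (11123 higher, 10145 lower) and 9071 for the difference. Same-numbered libraries of the 2 days correlated at 0.129, 0.066 and 0.063 in their deviations, each the best match of its number, which hints at pairing that the labels do not state. The 12 differences between positions named above kept sign and call in all alternatives run; of the named genes' basal values, 2655 of 2701 did and 46 lost the call, and 0 turned.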
